A study of Mus musculus with 24 samples.

Results

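The insulin-like growth factor (IGF) and insulin signaling genes are described here through 10 members: the ligands Igf1 and Igf2, the receptors Igf1r and Insr, the receptor substrates Irs1 and Irs2, and the binding proteins Igfbp2, Igfbp3, Igfbp4 and Igfbp5. They were taken by name, through the 19 probes that carry one of these gene names. Of the 39429 probes on the array, 27192 passed the signal filter and left 20882 genes for testing. The filter kept 18 of the 19 probes and each of the 10 genes.

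RNA was measured in 24 mammary tumors of female BALB/c mice, an inbred strain with no transgene, each on its own 2-color array beside a common reference RNA made from mouse cell lines. The study asked how a diet rich in animal fat (HFD), against a low-fat diet (LFD), acts on tumor formation when it is eaten in puberty, in adult life or in both. Diets began at 3 weeks of age, and in the crossover arms they were exchanged at 9 weeks, from HFD to LFD (HFD-LFD) or from LFD to HFD (LFD-HFD). All mice were given the carcinogen 7,12-dimethylbenz[a]anthracene (DMBA) by mouth in 4 weekly doses of 50 mg/kg from 5 weeks of age, and tumors were collected up to 45 weeks of age. Tumors that arose less than 23 weeks after DMBA are early and the others late. By the labels, 3 tumors were HFD Early, 6 HFD Late, 3 HFD-LFD Early, 3 HFD-LFD Late, 5 LFD Late and 4 LFD-HFD Late, so no early tumor came from a mouse that ate LFD in puberty. The text of the study counts arrays, early tumors and LFD tumors differently, and the labels were followed. Tumors are numbered within a group in the order of the deposit, which only names them. The labels do not say whether each tumor came from a separate mouse, and p-values measure the spread between these tumors.

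IGF1 and IGF2 are secreted growth factors that bind the receptor tyrosine kinase IGF1R, and insulin binds the related receptor INSR. Both receptors phosphorylate the adaptor proteins IRS1 and IRS2, which pass the signal to PI3 kinase, Akt and mTOR. In the mammary gland, growth hormone acts on the stroma to produce IGF1, which supports growth of the ducts in puberty. IGF binding proteins hold the ligands in tissue fluid and can lower or prolong their action, and IGFBP5 is known for its rise in the involuting gland.

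Each probe is a string of 60 bases printed on the glass. The first 30 bases are shown, 5′ to 3′, for the probes on which the results below turn, with mm9 positions of the whole probe from the file headers. Whether these positions are coding or untranslated sequence was not analysed here, since no annotation of that build was used. The first set holds the single probes of Igf1r, Igf2, Igfbp5 and Irs2.
Igf1r, chr7:75378461-75378520, plus strand: gctaaagctaaggccacttgagtctattac
Igf2, chr7:149839661-149839720, minus strand: atcaaattatgtggtaattctgcaatgtag
Igfbp5, chr1:72904829-72904888, minus strand: cacatcacatattactgtagctctctatag
Irs2, chr8:11004490-11004549, minus strand: tggagctttgccctctgccagcacctatgc

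Insr had 3 probes, shown because the third ran against the others across tumors. The first stands for the gene in the tests, as the brightest.
Insr probe 1, chr8:3151667-3151726, minus strand: cagattctagctaatgaattcttgacaaca
Insr probe 2, chr8:3154024-3154083, minus strand: acacagatggactttgagaacactaagcaa
Insr probe 3, chr8:3155472-3155531, minus strand: tttctgtttgtcttttgacctgaaaacaca

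Igf1 had 5 probes, of which the brightest (probe 1) and probe 2 overlap by 40 bases, and the capitals mark the 10 of those bases that lie in both printed stretches.
Igf1 probe 1, chr10:87393581-87393640, plus strand: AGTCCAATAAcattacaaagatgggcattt
Igf1 probe 2, chr10:87393561-87393620, plus strand: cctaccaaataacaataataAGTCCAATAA

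Values below are log2 ratios of tumor over reference signal within an array, so that 0 means equal signal, and they compare tumors for 1 gene, not 1 gene with another. The ratio was taken as cyanine 5 over cyanine 3, because the labels place tumor RNA in cyanine 5. The methods of the study name cyanine 5 for the reference, which would turn every sign. From array to array, the 27192 probes varied with a median SD of 0.805 on the log2 scale in cyanine 5 against 0.268 in cyanine 3, and the Y-linked Ddx3y and Eif2s3y were well above background on 0 of 24 arrays in cyanine 5 and on 24 in cyanine 3, which is the pattern of female tumors in cyanine 5. The share of probes whose tumor signal was well above background ran from 66.1% to 89.2% between arrays, and the correlation between arrays over the probes ran from 0.5656 to 0.9663. Arrays were scanned in 3 sessions by the file headers: session 1 held HFD Early, 4 LFD Late and 4 HFD Late tumors on 3 slides, session 2 held HFD-LFD Early, 2 HFD-LFD Late tumors and 1 LFD-HFD Late tumor, and session 3 held 7 late tumors. On the 7 arrays of session 3, 6.9% to 15% of spots lay in rows with dimmed cyanine 5 signal and were set missing, which took Irs2 from 3 late tumors. A spot flagged by the scanner software took Igfbp5 from LFD Late 4, and fits left these values missing. Every probe of the 10 genes that stood for its gene was well above background in both channels on each array where it was measured. The epithelial keratins Krt8 and Krt19 and the adhesion protein Epcam gave a tumor signal well above background in all 6 early and 18 late tumors. Krt18, whose tested probe had a value on 21 arrays, was so in 6 early and 15 late tumors.

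**Figure D1:**
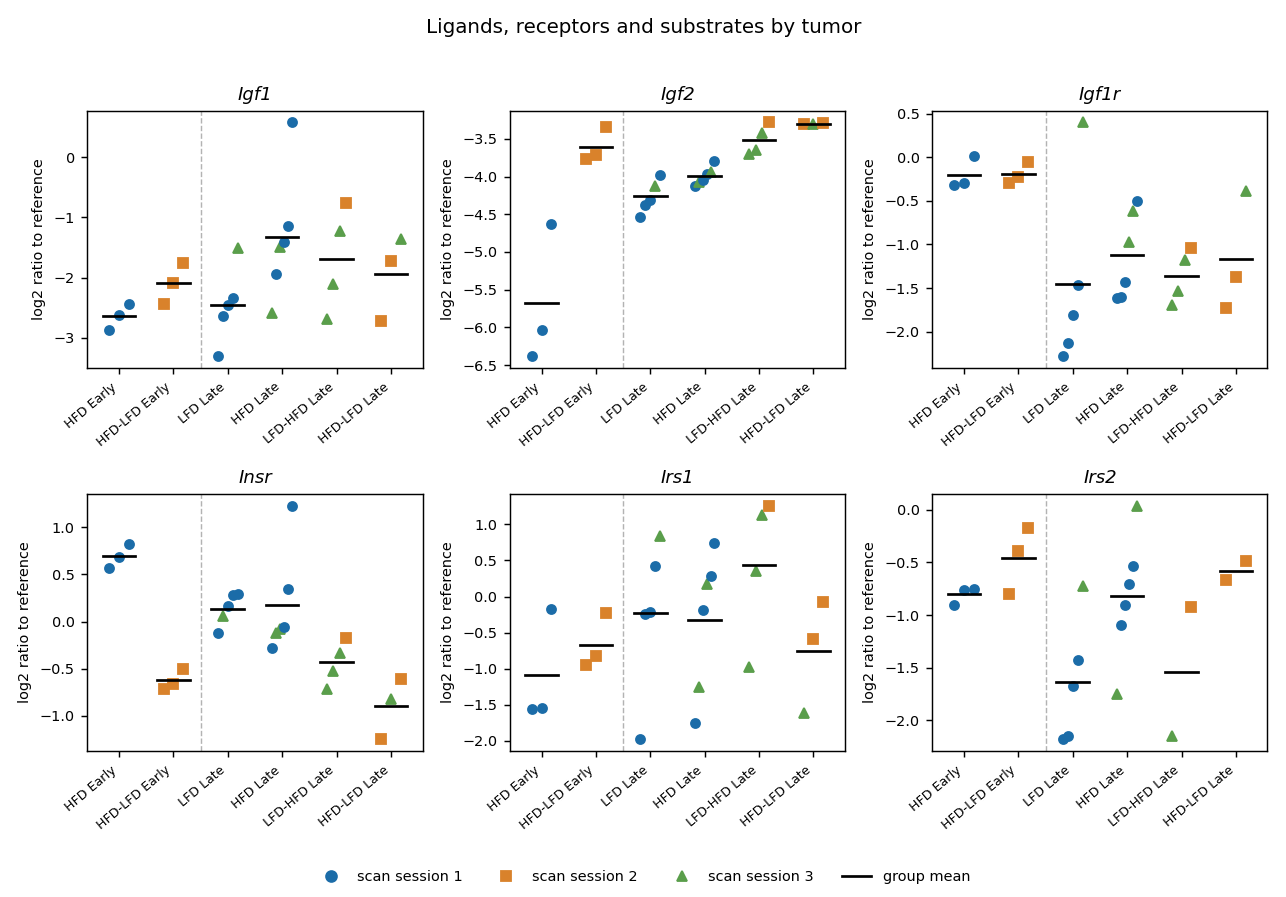
Log2 ratio of tumor to reference (vertical axis) for Igf1, Igf2, Igf1r, Insr, Irs1 and Irs2 in each tumor, by diet and onset group (horizontal axis), with the shape and color of the point giving the scan session and the bar the group mean; the dashed line parts early from late groups. Igf1r lay between -0.32 and 0.01 in the 6 early tumors, above 17 of 18 late tumors, and the lowest 3 values of Igf2 are those of HFD Early.

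Early and late tumors were compared first, 6 against 18 over all diets. Igf1r, the receptor of both IGF ligands, was higher in early tumors, by 2.1-fold, and it was the only 1 of the 10 genes whose change passed an adjusted p of 0.05. Among all 20882 genes, 16.0% passed in this comparison, so that 1 of 10 members was below the share of all genes. The median difference over the 10 genes was -0.50, beside -0.06 over all genes, with 4 higher and 6 lower in early tumors. The difference of Igfbp5, -2.00, was larger in size than that of Igf1r but stood beside a wider spread between tumors.

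Igf1r stood at -0.30, 0.01 and -0.32 in the 3 HFD Early tumors and at -0.30, -0.06 and -0.23 in the 3 HFD-LFD Early tumors. The late tumors ran from -2.28 to 0.40, with a median of -1.45. All 6 early tumors lay above that median, 17 of 18 late tumors lay below the lowest early tumor, and the remaining late tumor, LFD Late 4, lay above the highest. Early tumors averaged -0.20 ± 0.14 (SD, n = 6) and late tumors -1.27 ± 0.67 (SD, n = 18), a difference of 1.07 (SE 0.27, adjusted p = 0.00971). By group, the order of means from low to high was LFD Late at -1.46, LFD-HFD Late at -1.36, HFD-LFD Late at -1.16, HFD Late at -1.12, HFD Early at -0.21 and HFD-LFD Early at -0.20. Only the step from HFD Late to HFD Early exceeded the larger SD of its neighbors, and the late groups did not separate from each other.

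Within session 1, Igf1r was 1.40 higher in the 3 early than in the 8 late tumors (SE 0.31, adjusted p = 0.0279), and within session 2 it was 1.18 higher in 3 than in 3 (SE 0.19, adjusted p = 0.016). With the slide as a random block the difference was 1.03 and missed the threshold (adjusted p = 0.0574), and with the slide as a fixed block, where only slide 4 holds both kinds of tumor, it was 0.85 (adjusted p = 0.559). Without the 6 arrays of session 2, an alternative chosen after seeing the data, it was 1.05 (adjusted p = 0.0995).

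Igf2, the ligand expressed mainly in fetal tissues, stood at -6.03, -6.38 and -4.63 in HFD Early tumors, below all 18 late tumors, which ran from -4.53 to -3.28 with a median of -3.95. In HFD-LFD Early tumors it stood at -3.71, -3.34 and -3.77, inside the late range. The early groups therefore lay apart in the ratio, but HFD Early was scanned in session 1 and HFD-LFD Early in session 2. The Igf2 reference signal was 2310 to 2590 in session 2 and 6620 to 10200 elsewhere. Group and session cannot be told apart here. The difference of early from late, -0.80 (SE 0.32), did not pass (adjusted p = 0.0842). With the scan session as a fixed block it was -1.04 (adjusted p = 0.00375) and with the tumor channel alone -1.52 (adjusted p = 0.006), so this call turned on the processing.

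Igf1, the ligand produced under growth hormone, was at -2.86 to -1.75 in early tumors (median -2.44) and at -3.30 to 0.58 in late tumors (median -1.83). The ranges overlapped, and the difference was -0.55 (SE 0.37, adjusted p = 0.314). Probe 2 followed probe 1 across tumors (r = 0.994 over 20 arrays), and the other 3 probes gave r of 0.937, 0.65 and 0.408 to probe 1 over 24 arrays. Of these 3, the last ones had r = -0.212 to each other, so the Igf1 probes did not all follow each other. Over the 5 probes the difference ran from -0.80 to 0.05, and none passed when each probe was tested by itself.

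Insr, the insulin receptor, differed by 0.19 (SE 0.27, adjusted p = 0.666). In early tumors it lay in separate sets, at 0.57, 0.82 and 0.69 in HFD Early and at -0.66, -0.71 and -0.50 in HFD-LFD Early. Late tumors ran from -1.25 to 1.23 and covered both sets. All HFD Early arrays were of session 1 and all HFD-LFD Early arrays of session 2. Late tumors averaged 0.23 in session 1 (n = 8) and -0.68 in session 2 (n = 3). Group and session cannot be told apart for the early sets. Probes 1 and 2 followed each other (r = 0.768 over 24 arrays), whereas probe 3 ran the other way, with r of -0.678 to probe 1 and -0.673 to probe 2 over 20 arrays.

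Irs1 and Irs2, the substrates that couple both receptors to PI3 kinase, did not pass. Irs1 was 0.68 lower in early tumors (difference -0.68, SE 0.41, adjusted p = 0.252), with none of the 6 early tumors above the late median of -0.12. The second Irs1 probe gave -0.57 (SE 0.25, adjusted p = 0.124 over all probes), with r = 0.788 between the probes over 24 arrays. Irs2, measured in 6 early and 15 late tumors, was 0.52 higher in early tumors (SE 0.28, adjusted p = 0.203), and all 6 lay above the late median of -0.92. The late range of Irs2, from -2.18 to 0.04, covered the early range of -0.90 to -0.17.

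Among the binding proteins, Igfbp5 showed the widest span of the 10 genes. It stood at 2.01, -0.21 and 0.46 in HFD Early and at -0.04, -0.31 and -0.43 in HFD-LFD Early tumors. In the 17 late tumors with a value the median was 2.73 and the highest 4.34, and 11 of them lay above every early tumor. The lowest late tumor, HFD Late 4, was at -2.84, below all early tumors. Early tumors averaged 0.25 ± 0.92 (SD, n = 6) and late tumors 2.24 ± 1.69 (SD, n = 17), a difference of -2.00 (SE 0.69, adjusted p = 0.0503).

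The call on Igfbp5 lay at the threshold. Without HFD Late 4 the adjusted p was 0.00302, and the difference passed in 7 of the 24 fits that left out 1 array. It was -3.06 within session 2 (adjusted p = 0.00158) and -1.49 within session 1 (adjusted p = 0.452). HFD Late 4 had the lowest mean level of luminal epithelium markers of the late tumors, -1.86, and the highest of squamous markers, 2.82, and of fibroblast markers, 0.07. The part of these markers in the Igfbp5 value was not tested.

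Igfbp2 ran from -2.74 to -1.20 in early tumors and from -3.08 to 0.97 in late tumors. None of the 6 early tumors lay above the late median of -0.78, and the difference was -1.03 (SE 0.45, adjusted p = 0.114). Its second probe gave -1.05 (r = 0.991 between the probes over 21 arrays). Igfbp3 differed by -0.45 (SE 0.38, adjusted p = 0.432) and Igfbp4 by 0.55 (SE 0.35, adjusted p = 0.279), and the late range covered all early tumors for Igfbp3 and 5 of 6 for Igfbp4. The second Igfbp3 probe was the 1 member probe that did not pass the filter, with a reference signal over 10 on too few arrays.

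**Figure D2:**
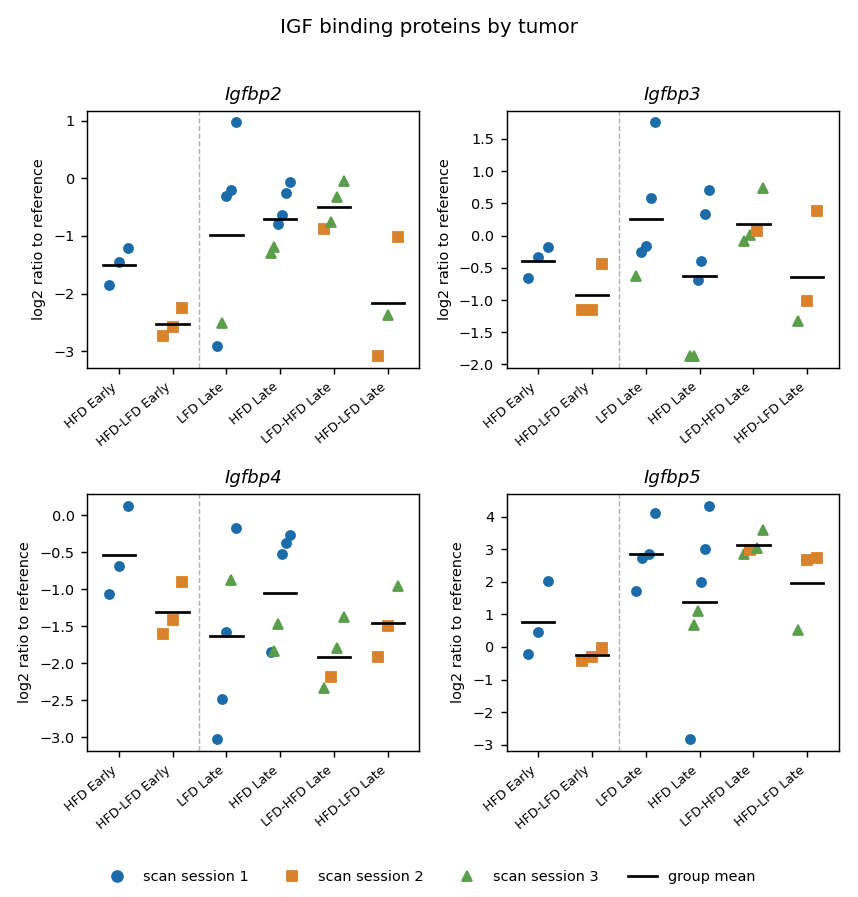
Log2 ratio of tumor to reference (vertical axis) for Igfbp2, Igfbp3, Igfbp4 and Igfbp5 in each tumor, by diet and onset group (horizontal axis), with the shape and color of the point giving the scan session and the bar the group mean; the dashed line parts early from late groups. Igfbp5 spans from -2.84 in HFD Late 4 to 4.34, and 11 of 17 late tumors lie above every early tumor.

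Other genes of the pathway, from 6 lists written by hand, were counted in the same comparison. Of 19 tested genes that surround the IGF system, 5 fell in early tumors and none rose, with a median of -0.47, beside 16.0% called and a median of -0.06 over all genes. They were the insulin genes Ins1 (-0.88, adjusted p = 0.0411) and Ins2 (-0.54, adjusted p = 0.0232), the receptor substrate Irs3 (-0.48, adjusted p = 0.0252), the mRNA-binding protein Igf2bp2 (-1.34, adjusted p = 0.00819) and Stc2, an inhibitor of the proteases that cleave binding proteins (-2.16, adjusted p = 0.0258). With the tumor channel alone, 2 of these 5 passed, Igf2bp2 and Stc2. H19, the imprinted neighbor of Igf2, did not pass (0.03, adjusted p = 0.941). Ins1, Ins2 and H19, like Igf2, were far dimmer in the tumors than in the reference, with mean log2 ratios in late tumors of -3.27, -3.06 and -3.81.

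Beside 16.0% called over all genes, 3 of 10 genes of the growth hormone axis fell and none rose, with a median of -0.48. These were the transcription factors Stat5a (-1.90, adjusted p = 0.00868) and Stat5b (-0.90, adjusted p = 0.00657), which act below the growth hormone and prolactin receptors, and Cish, a STAT5 target that inhibits the same receptors (-0.96, adjusted p = 0.0113). The growth hormone receptor Ghr itself did not pass (-0.46, adjusted p = 0.447), whereas the prolactin receptor Prlr fell by 3.97 (adjusted p = 0.00425) and the estrogen receptor Esr1 by 1.32 (adjusted p = 0.0381).

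Among 20 adaptors and inhibitors at the receptors, 3 rose and 3 fell, beside 16.0% called over all genes, with a median of -0.14. The 3 with the smallest p all fell: the phosphatase Ptprj (-1.19, adjusted p = 0.00287), the adaptor Grb14, which inhibits the insulin receptor (-2.11, adjusted p = 0.00791), and the pseudokinase Trib3, which binds Akt (-1.47, adjusted p = 0.0126). Of 22 genes of PI3 kinase and Akt signaling, 1 rose and 3 fell, near the 16.0% over all genes, with a median of -0.08. The lipid phosphatase Inppl1 fell by 0.78 (adjusted p = 0.0297), and the catalytic subunit Pik3cb rose by 0.58 (adjusted p = 0.0237).

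In the mTOR arm, 1 of 18 genes rose and 1 fell, beside 16.0% called over all genes, with a median of 0.05. The ribosomal protein Rps6 rose by 0.34 (adjusted p = 0.0179) and the translation inhibitor Eif4ebp1 fell by 0.67 (adjusted p = 0.01). Of 12 insulin-responsive genes of metabolism, 2 fell, near the share over all genes, with a median of -0.35. They were Srebf1, the transcription factor of lipid synthesis (-0.60, adjusted p = 0.01), and the glycolytic regulator Pfkfb3 (-0.73, adjusted p = 0.0435). With the tumor channel alone, none of the genes in these 2 lists passed.

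Markers of the luminal hormone-sensing cell state moved with onset beside Igf1r. Of 9 such markers tested, 7 fell in early tumors and none rose, with a median of -2.07, and their mean level per tumor ran from -0.74 to 1.01 in early tumors and from -1.35 to 3.41 in late tumors, with medians of -0.61 and 2.70. Of 9 proliferation markers, 5 rose (median 0.85), and of 10 squamous markers none passed, with a median of 1.38. In bulk tumors, fewer cells of a type and less RNA per cell cannot be told apart. Over all genes, 16.0% were called in this comparison. The other marker lists held at most 2 called genes each. Fibroblasts (2 of 10), basal and myoepithelial cells (2 of 9), luminal epithelium (2 of 10) and milk proteins (1 of 5) lay above that share. Below it lay adipocytes and macrophages (1 of 9 each) and endothelium and skeletal muscle (1 of 8 each). So did T cells (1 of 7) and B cells (0 of 4).

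Igf1r was not low in every late tumor. LFD Late 4, HFD-LFD Late 3, HFD Late 4 and HFD Late 6 stood at 0.40, -0.39, -0.50 and -0.62, the highest among late tumors. Their mean hormone-sensing marker levels were -0.60, 0.56, 0.45 and -1.35, and 13 of the other 14 late tumors stood at 1.57 or above. The exception was LFD Late 3, with a marker level of -0.28 and Igf1r at -1.81. Among early tumors, HFD Early 1 had the highest marker level, 1.01, with Igf1r at -0.30, inside the early range. The part of these markers in the Igf1r difference was not tested.

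**Figure D3:**
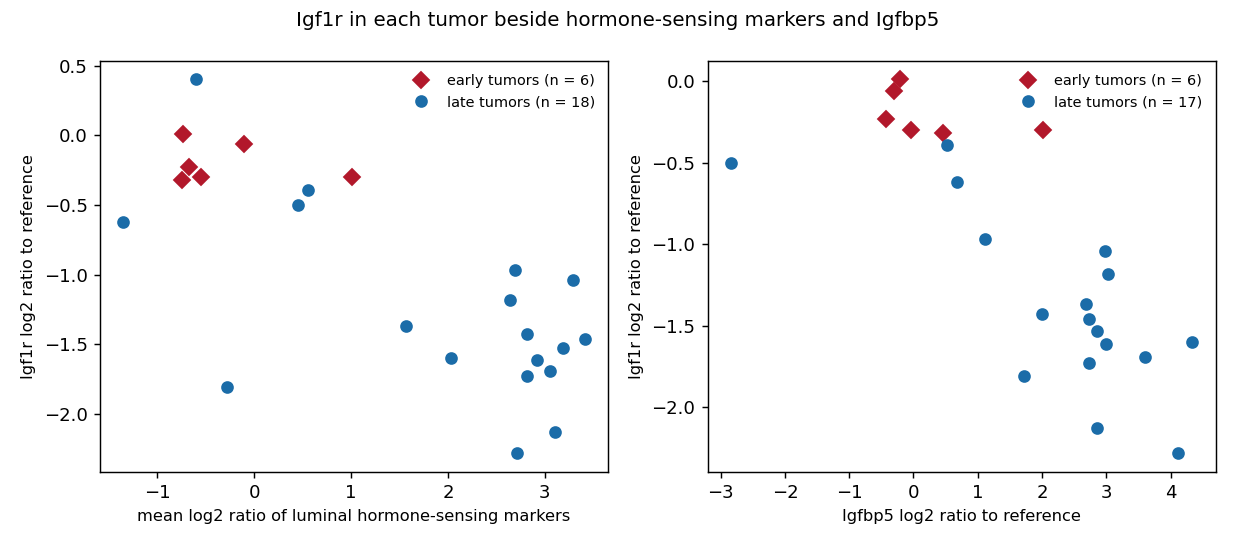
Igf1r log2 ratio of tumor to reference (vertical axes) in each tumor against the mean log2 ratio of luminal hormone-sensing markers (left) and against the Igfbp5 log2 ratio (right), with diamonds for early and circles for late tumors. The 4 late tumors with the highest Igf1r have marker levels of 0.56 or lower, and over late tumors Igf1r is lower where Igfbp5 is higher.

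Relations between members were computed over the late tumors alone, for 45 pairs, and 3 pairs passed an adjusted p of 0.05 for Pearson's r in permutation tests of 100000 resamples, two-sided. Igf1r was low where Igfbp5 was high, with r = -0.74 over 17 tumors (permutation p = 0.00027, adjusted p = 0.0121) and rho = -0.59 (permutation p = 0.0144, adjusted p = 0.103). The r was -0.62 without the 2 tumors farthest from the median of Igf1r, -0.83 over the 8 late tumors of session 1 and -0.94 over the 6 of session 3. Over the 13 tumors with a hormone-sensing level above 1 it was -0.57. Igf1r was likewise low where Igfbp3 was high, with r = -0.67 over 18 tumors (permutation p = 0.0027, adjusted p = 0.0405) and rho = -0.77 (permutation p = 0.00046, adjusted p = 0.0069). Without the 2 farthest tumors r was -0.75, within sessions 1 and 3 it was -0.70 and -0.50, and over the 13 tumors -0.78.

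The third pair was Igf2 and Insr, with r = -0.70 (permutation p = 0.00088, adjusted p = 0.0198) and rho = -0.81 (permutation p = 8e-05, adjusted p = 0.0036). Without the 2 farthest tumors r was -0.73, but it was -0.06 over the 8 late tumors of session 1 and -0.99 over the 7 of session 3, so the relation did not hold within session 1. By rho, 2 further pairs passed: Igfbp3 and Igfbp5 were high in the same tumors (rho = 0.81, permutation p = 0.00016, adjusted p = 0.0036, r = 0.59 with adjusted p = 0.102), as did Igfbp2 and Igfbp3 (rho = 0.68, permutation p = 0.00253, adjusted p = 0.0285, r = 0.61 with adjusted p = 0.0642). Within sessions 1 and 3, r was 0.57 and 0.95 for the former and 0.54 and 0.57 for the latter.

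Across all tumors, the genes whose pattern was most like each member were named by Pearson's r, as a description over points that share arrays and reference. For Igf1r they were Tubb3 (r = 0.891 over 20 tumors) and Pbx3 (r = 0.865 over 24), for Igf2 Ap3b2 (r = 0.978) and Caly (r = 0.974), for Igf1 Slc2a13 (r = 0.888) and Apba1 (r = 0.884), and for Insr Qrich1 (r = 0.92) and Cep170 (r = 0.907), each of these 6 over 24 tumors. For Irs1 they were Oaz2 (r = 0.886) and Zmat1 (r = 0.88), each over 21 tumors. For Irs2 they were the unnamed probe A_55_P2005343 (r = 0.799) and Kat14 (r = 0.778), each over 21. Among binding proteins, Igfbp5 was most like Plekhf1 (r = 0.932) and Cfap410 (r = 0.92), each over 20 tumors, Igfbp2 like Fgfr2 (r = 0.855 over 24) and Ppp1r9b (r = 0.854 over 20), Igfbp3 like Armh4 (r = 0.854) and Dap (r = 0.83), each over 24, and Igfbp4 like Yju2 (r = 0.853 over 21) and BC034090 (r = 0.852 over 20).

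The change with onset was then taken within each diet that gave both kinds of tumor. On continuous HFD, 3 early against 6 late tumors, Igf2 was 3.24-fold lower in early tumors and was the only member that passed, beside 11.2% of all genes. The 3 early values, -6.03, -6.38 and -4.63, lay below all 6 late values, which ran from -4.12 to -3.80 with a mean of -3.99 ± 0.11 (SD, n = 6). The difference was -1.70 (SE 0.24, adjusted p = 0.000686). In background-subtracted signal, the HFD Early tumors gave 347, 188 and 870 in the tumor channel beside 7660, 6620 and 8480 in the reference.

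HFD Early tumors lay on a slide of their own, so that slide and group cannot be told apart here. Igf2 passed in all 24 fits that left out 1 array, at -2.22 to -1.34, and with the tumor channel alone the difference was -1.59 and did not pass (adjusted p = 0.0802). Igf1r was 0.91 higher in early tumors on HFD (SE 0.43, adjusted p = 0.163), Igf1 was lower (-1.31, SE 0.52, adjusted p = 0.102) and Insr was higher (0.52, SE 0.24, adjusted p = 0.157), and none of these passed. Tested by itself over all probes, Insr probe 2 was 0.95 higher (adjusted p = 0.00979) and the Igf1 probe at chr10:87378456-87378515 lower (-0.80, adjusted p = 0.0357). With the scan session as a block, Igf1r was 1.31 higher and passed (adjusted p = 0.0212).

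Of the surrounding IGF genes, 4 of 19 fell in early tumors on HFD and none rose, beside 11.2% called over all genes: Ins1 (-1.73, adjusted p = 0.000408), the binding protein Igfbp1 (-0.62, adjusted p = 0.0372), Igf2bp2 (-1.56, adjusted p = 0.0494) and the protease Pappa2, which cleaves binding proteins (-1.12, adjusted p = 0.0275). In other lists, 1 of 10 genes fell in the growth hormone axis, 3 of 20 rose among adaptors, and 1 of 18 rose and 1 fell in the mTOR arm. None of the 12 genes of metabolism passed. These shares lie near the 11.2% over all genes or below it, except those of the surrounding IGF genes and the adaptors, and the PI3 kinase and Akt list is not reported within HFD.

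Markers of cell states were counted between the same tumors, beside 11.2% called over all genes. Within HFD, luminal hormone-sensing markers had a median difference of -1.99, adipocyte markers of -1.09 and fibroblast markers of -0.51, beside -0.09 over all genes, with none of the 9, 9 and 10 tested markers higher in early tumors and 1, 1 and 2 called lower. Of 9 proliferation markers 2 rose, with a median of 0.75, and 1 of 7 T cell markers fell, with a median of -0.65. The 10 squamous markers had a median of 1.19 and none passed. The called counts of hormone-sensing and adipocyte markers thus lay near the share of all genes. In the remaining lists no marker passed. Their medians were 0.18 for luminal epithelium (6 of 10 higher), -0.08 for endothelium, -0.16 for macrophages and -0.24 for B cells. They were -0.34 for basal and myoepithelial cells, -0.38 for skeletal muscle and -0.75 for milk proteins. The mean adipocyte level per tumor ran from -3.41 to -2.50 in HFD Early and from -3.40 to -0.77 in HFD Late tumors, and the mean fibroblast level from -2.41 to -1.61 and from -2.27 to 0.07. Their part in the values of Igf1, Igf2 and Igf1r was not tested.

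Where HFD had been eaten in puberty only, 3 early against 3 late HFD-LFD tumors, no member passed the limma test, and none had an unadjusted p under 0.05. Over all genes, 0.661% passed and 14.8% had an unadjusted p under 0.05. Igf1r stood at -0.30, -0.06 and -0.23 in early and at -1.37, -1.73 and -0.39 in late tumors. The difference was 0.97 (SE 0.49, adjusted p = 0.369). Igfbp5 stood at -0.04, -0.31 and -0.43 in early and at 2.68, 2.73 and 0.52 in late tumors. The difference was -2.24 (SE 1.16, adjusted p = 0.377). In both genes the late tumor nearest to the early ones was HFD-LFD Late 3.

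The change with onset was not shown to differ between the diets for any member. The difference of the changes, HFD-LFD minus HFD, passed for none of the 10 genes and for 0% of all genes, with 1 member and 8.15% of all genes at an unadjusted p under 0.05. That member was Igf2 (1.39, SE 0.37, unadjusted p = 0.00119, adjusted p = 0.443), and without HFD Early 3 its value was 1.92 (adjusted p = 0.00132). For Igf1r the difference of the changes was 0.05 (SE 0.65, adjusted p = 0.987).

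**Figure D4:**
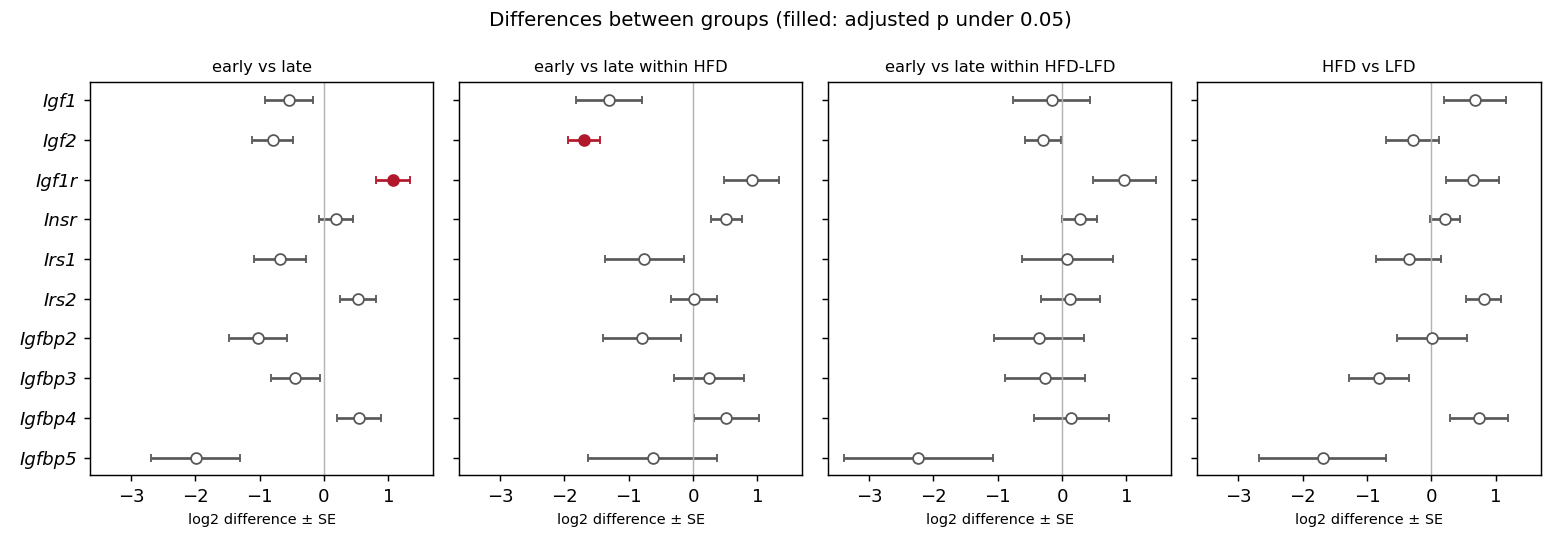
Difference in log2 ratio between groups (horizontal axes, point with 1 SE to each side) for the 10 genes in 4 comparisons, first-named minus second-named group, with filled red points for an adjusted p under 0.05. Igf1r at 1.07 in early against late tumors and Igf2 at -1.70 within HFD are filled.

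Continuous HFD and continuous LFD were compared over 9 and 5 tumors. No member passed the limma test and 0% of all genes did, while 1 member and 3.98% of all genes had an unadjusted p under 0.05. That member was Irs2, which stood at -1.43, -2.18, -1.67, -0.72 and -2.15 in LFD tumors and from -1.75 to 0.04 in HFD tumors. It was 0.81 higher on HFD (SE 0.27, unadjusted p = 0.00976, adjusted p = 0.981). Igfbp5 differed by -1.69 (SE 0.99, adjusted p = 0.981) and Igf1r by 0.64 (SE 0.41, adjusted p = 0.981), and the HFD arm holds 3 early tumors and the LFD arm none.

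Among late tumors, the 4 diets were compared in 1 test for any difference between their means. Insr passed, as the only member, beside 1.67% of all genes (adjusted p = 0.0447). It stood at 0.28, 0.16, 0.29, 0.06 and -0.12 in LFD Late, from -0.28 to 1.23 in HFD Late, at -0.33, -0.71, -0.17 and -0.52 in LFD-HFD Late and at -1.25, -0.61 and -0.82 in HFD-LFD Late tumors. The means were 0.13, 0.17, -0.43 and -0.89, so that every tumor of the exchanged diets lay below every LFD Late tumor, while HFD Late overlapped LFD-HFD Late. The means spanned 1.07 log2 units.

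The Insr call was lost in many alternatives. Its adjusted p was 0.241 with the scan session as a block, 0.376 with the slide as a random block, 0.194 with the tumor channel alone and 0.36 with the mean over its 3 probes, and it passed in 7 of 24 fits that left out 1 array. Igf2 (adjusted p = 0.0744) and Irs2 (adjusted p = 0.208) had unadjusted p values of 0.00267 and 0.0332 and did not pass. For Igf2 the order of the 6 group means followed the sessions in part. The 3 groups that hold tumors of session 2 were highest, at -3.61 in HFD-LFD Early, -3.51 in LFD-HFD Late and -3.30 in HFD-LFD Late. Within session 3 the late crossover groups also lay highest, at -3.31 in HFD-LFD Late (n = 1) and -3.59 in LFD-HFD Late (n = 3). HFD Late was at -4 (n = 2) and LFD Late at -4.12 (n = 1) there.

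The reference RNA was the same material by the labels, and yet its signal differed by session for some members. For Igf2 it was 2310 to 2590 on the 6 arrays of session 2 and 6620 to 10200 on the other 18, with no overlap and a median gap of -2.11 log2 units after quantile scaling. For Irs2 it was 3170 to 3530 against 5150 to 9970 on 15 arrays (gap -1.71). For Insr probe 3 it was 30.1 to 55.6 against 73.8 to 133 on 14 arrays (gap -1.06). The gaps of Insr probe 1 and Igf1r ran the other way and were smaller, 0.32 and 0.36. Over all probes, 6.44% differed by more than 2-fold between session 2 and the others, against 3.13% for session 1 and 3.09% for session 3. The part of the reference signal in the differences between sessions was not tested. The Igf2 ratio of HFD-LFD Late averaged -3.30 in session 2 (n = 2) and was -3.31 in session 3 (n = 1). In LFD-HFD Late it was -3.28 (n = 1) and -3.59 (n = 3). Comparisons within a session, given above for Igf1r and Igfbp5, do not cross sessions. For Igf2, early minus late was -1.54 within session 1 (adjusted p = 0.0216) and -0.31 within session 2 (adjusted p = 0.192).

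**Figure D5:**
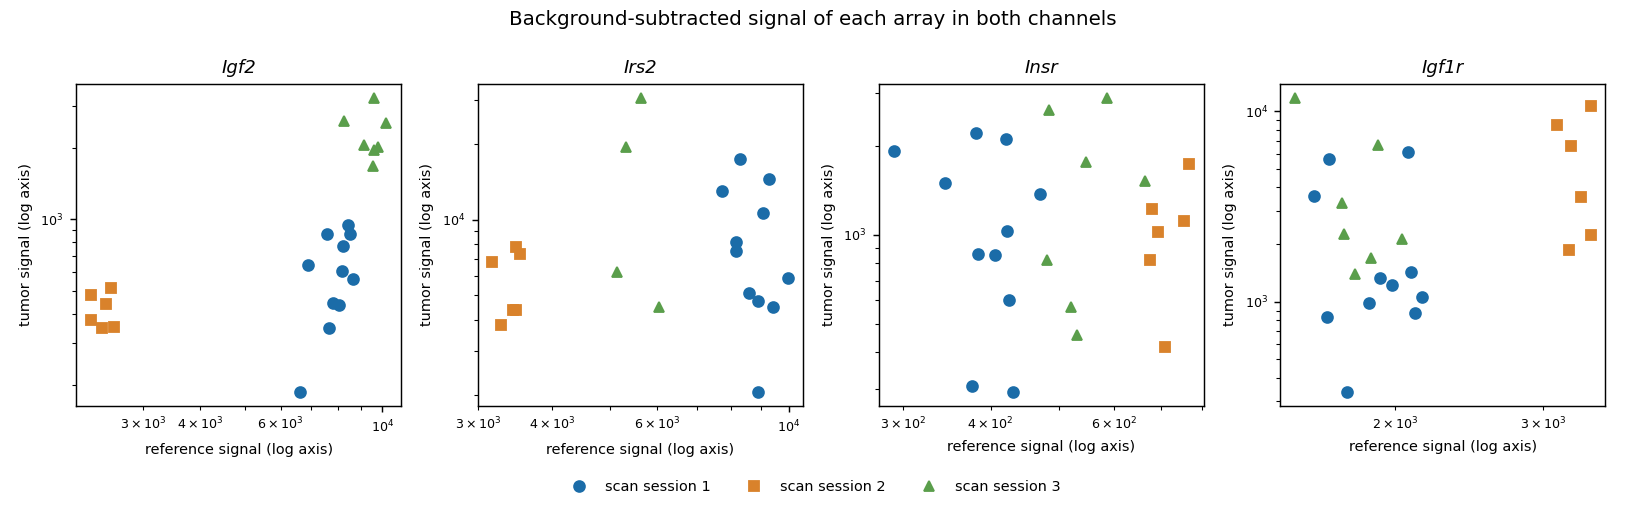
Background-subtracted signal of each array in the tumor channel (vertical axes, log scale) and the reference channel (horizontal axes, log scale) for the probes that stand for Igf2, Irs2, Insr and Igf1r, with shape and color giving the scan session. The 6 arrays of session 2 stand apart along the reference axis, at 2310 to 2590 for Igf2 against 6620 to 10200 on the others.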

How the data were processed

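The authors labeled tumor RNA and a universal mouse reference RNA with different dyes, hybridized them together on Agilent arrays and read them with Feature Extraction, 11.0.1.1 per the file headers and 8.5.1.1 per the processing notes. The deposited intensity values are mean spot and median local background signals without dye normalization, with background-subtracted signals beside them, and the deposited log10 values are dye-normalized ratios of the scanner software. Intensities were used, and the log10 ratio only as an alternative.

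Signals were processed in R 4.3.3 with limma 3.58.1: normexp with an offset of 50 fitted without outlier-flagged spots, loess within arrays, and dimmed rows of cyanine 5 set missing (a loss of over 0.5 log2 units, in windows of 10 rows). A probe was kept if its signal exceeded 10 in each channel on 80% of arrays or more. Of several probes, the brightest stood for the gene. Current gene names came from RefSeq: the accession gave the name of 27234 probes, the symbol that of 3576 and a former symbol that of 565, while 8054 have the name in the file.

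Missing values stayed missing, unlike in the study, which imputed them. limma moderated tests were adjusted by Benjamini-Hochberg over all 20882 genes. Changes within HFD and HFD-LFD, their difference and the late tumors by diet were contrasts of 6 group means over 24 arrays, and HFD against LFD used 14. The steps were tested on simulated data. The 10 genes, the pathway and marker lists, the comparisons and the alternatives were chosen with earlier results of these data known. The genes named were the 10 members, every called gene of the surrounding IGF list, the 3 smallest p among called genes of each other list in early against late, the 2 genes most like each member, and H19, Esr1, Prlr and Ghr. The genes named from the pathway lists within a diet were chosen after their values were seen. Igf2bp3, from the IGF list, did not pass the filter. A result that this rule would name in the PI3 kinase and Akt list is not reported here.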

Additional observations from a re-analysis of the deposited data

How the results depend on the processing

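No paired analysis was possible, as groups compared share fewer than 2 numbers in the tumor titles, which the labels do not call pairs. No called difference turned sign in any alternative, and 80 of 2559 member values did so uncalled. Values for late tumors by diet, being spans, or at an unadjusted p could not turn. The counts of members that passed, out of 10, were 1 for early against late, 1 within HFD, 0 within HFD-LFD, 0 for the difference of these changes, 0 for HFD against LFD and 1 for late tumors by diet. With 1 array left out they ran from 1 to 2, 1 to 2, 0 to 0, 0 to 1, 0 to 0 and 0 to 1 in that order. The count for early against late was 0 with the slide as a random block or as a fixed block. It was 2 with normexp on all spots, the tumor channel alone, a variance trend, the scan session as a block, and within session 1 or 2. It was 3 with group means weighted equally, and 4 with array weights or with an unadjusted p under 0.05. No count is given within slide 4, where 3 early tumors stood against 1 late tumor. Within HFD it was 0 with the tumor channel alone, 2 with median centring or the session as a block, 3 with each probe tested by itself or without the 7 arrays that hold dimmed rows, 4 with an unadjusted p and 7 with array weights. Within HFD-LFD it was 1 without those 7 arrays and 2 with array weights. For the difference of the changes it was 1 with array weights and at an unadjusted p, and for HFD against LFD 1 at an unadjusted p. For late tumors by diet it was 0 with dimmed rows kept and missing values imputed together, with normexp on all spots, median centring, the tumor channel alone, the mean over probes, a variance trend, the session as a block, the slide as either block or session 2 left out, 3 at an unadjusted p and 4 with array weights. Where the count stayed at 1, the gene was another in early against late without session 2 (Igf2, not Igf1r) and in late tumors by diet without the 7 arrays (Irs2, not Insr). The share of all genes called in early against late was 31.5% with array weights, 32.3% at an unadjusted p and 24.1% with group means. Where 2 members passed there, it was 22.1% with normexp on all spots, 10.5% with the tumor channel alone and 15.9% with a variance trend. It was 23.4% with the session as a block, 7.33% within session 1 and 11.8% within session 2. Within HFD it was 39% with array weights, 28.2% at an unadjusted p, 11.7% with each probe and 16.7% without the 7 arrays. There it was also 5.03% with the tumor channel alone, 13% with median centring and 15.9% with the session as a block. With array weights it was 10.8% within HFD-LFD and 20.8% for late tumors by diet, which had 20.3% at an unadjusted p. It was 2.13% within HFD-LFD without the 7 arrays and 2.33% for the difference of the changes with array weights. The cause of these moves was not tested.

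Over all genes, 3335 were called in early against late, and from 66 with the slide as a fixed block to 6740 at an unadjusted p. Within HFD the count of 2329 ran from 38 with the slide as a random block to 8136 with array weights, and within HFD-LFD the count of 138 from 5 with the same block to 3085 at an unadjusted p. For the difference of changes it was 0, and up to 486 with array weights at an adjusted p and 1702 at an unadjusted p. For HFD against LFD it was 0, and up to 733 with the slide as a fixed block and 832 at an unadjusted p, and for late tumors by diet 349, from 4 with the slide as a random block to 4344 with array weights. The slide as a fixed block could not be fitted within HFD or for the difference of changes. Leaving out session 2 was run only for early against late, within HFD and for late tumors by diet. The alternatives on wider dimmed rows, which changed no count of members and moved no count of all genes by over 1.5 times, and on session 2 were chosen after seeing the data. The 6 early tumors limit the precision of every comparison with onset, and Igf2 in the tumor channel, at a median signal of 624 beside 8090 in the reference, is read from the dim end of the ratio.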
